A study of Mus musculus with 6 samples.

Results

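The TNF receptor superfamily genes described here are 9 rows of the deposited expression table, of 25124 in all, taken by gene symbol: Cd40, Fas, Tnfrsf1a, Tnfrsf1b, Tnfrsf9, Tnfrsf10b, Tnfrsf12a, Tnfrsf14 and Tnfrsf26. They were compared between 3 M1 and 3 M0 libraries of poly(A) RNA. The cells were RAW264.7, a macrophage-like line of mouse origin. M1 cells had received 100 ng/ml of LPS (lipopolysaccharide, which signals through Toll-like receptors) and 50 ng/ml of IFN-γ, and M0 cells had received neither. All 6 libraries came from control cells that had received a Cas9 plasmid lacking a guide RNA, the comparison line for a knockout of E4BP4, and were grown in medium with 25 mM glucose for fewer than 15 passages. The labels do not give the duration of the treatment, whether the control cells were 1 clone, or whether each replicate was its own culture. The p-values therefore reflect the variation among these libraries only, and that variation may be technical.

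TNF receptor superfamily members are membrane proteins whose extracellular cysteine-rich domains bind trimeric ligands of the TNF superfamily. Members with a cytoplasmic death domain, among them Fas, TNFR1 (the product of Tnfrsf1a) and the mouse TRAIL receptor (Tnfrsf10b), can assemble complexes with the adaptors FADD or TRADD and start apoptosis. Members without one, such as CD40, TNFR2 (Tnfrsf1b), 4-1BB (Tnfrsf9), Fn14 (Tnfrsf12a) and HVEM (Tnfrsf14), bind TRAF adaptors and signal to NF-κB and MAP kinases. In macrophages CD40 is known for receiving help from T cells, and the receptors for TNF for relaying the cytokine that macrophages themselves secrete.

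Of the 9 receptors, 8 reached at least 1 TPM (reads corrected for transcript length and scaled within each library) in all 6 libraries and were tested. Of these, 6 were higher in M1, 1 was lower and 1 was not called (limma on log2(TPM + 1), called at 0.05 after Benjamini-Hochberg adjustment over all 11297 genes tested). Over all tested genes, 18.7% were called higher and 61.5% lower. The same 6 receptors had every M1 library above every M0 library, as had 19.6% of all tested genes, and the receptor called lower had every M1 library below, as had 61.8%. The median log2 fold change was 1.34 over the 8 tested receptors and -0.31 over all tested genes. After median-of-ratios scaling, which brings the median of all genes to 0.02, 7 of the 8 were called higher and 1 lower, against 38.1% and 35.4% of all genes. In bulk RNA, a change in RNA per cell and a change in the number of cells that express a gene cannot be told apart.

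**Figure D1:**
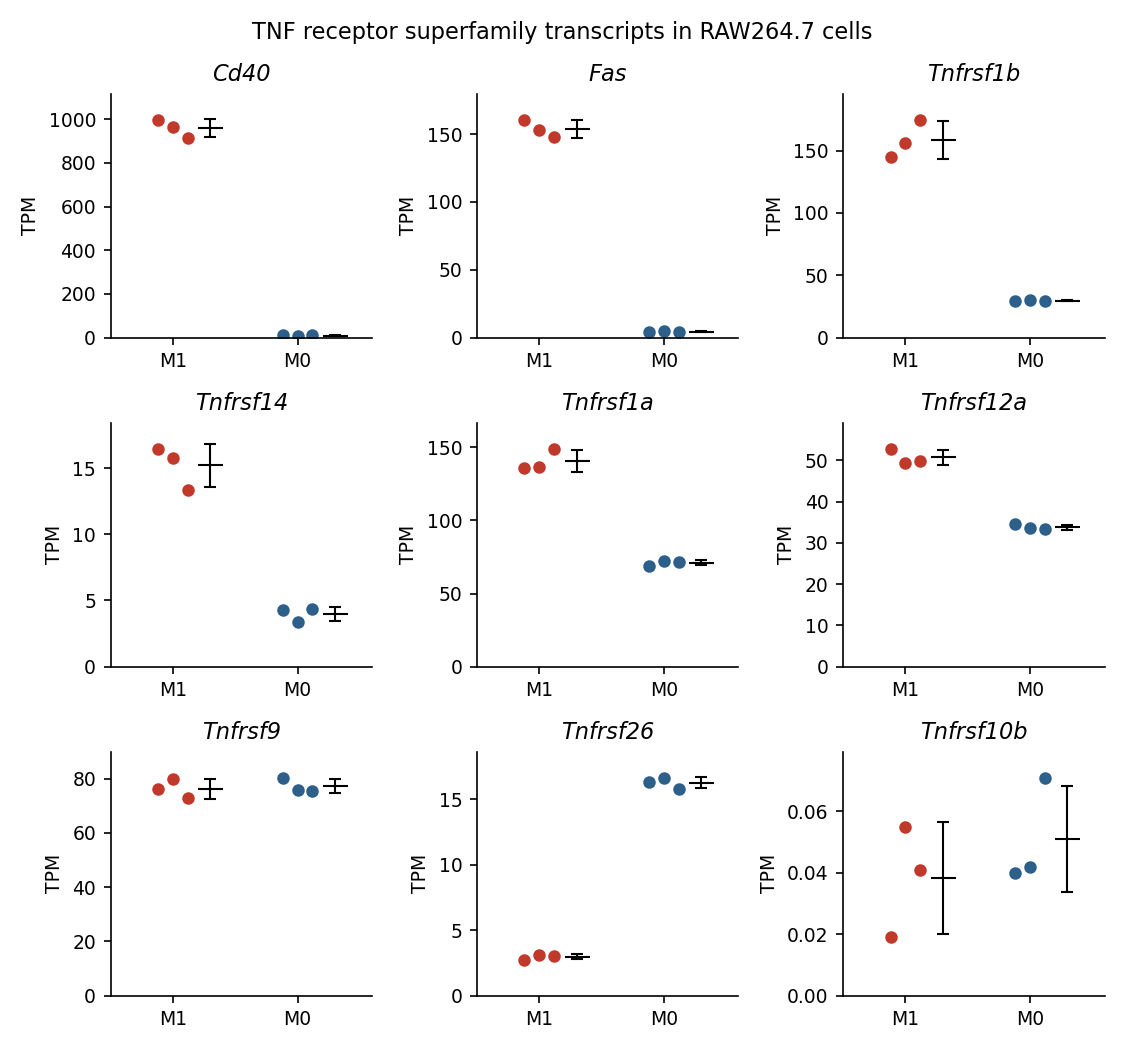
TPM (linear axes from 0) of each receptor in the 3 M1 libraries (red, left) and the 3 M0 libraries (blue, right), with the mean and SD beside the points. Cd40, Fas, Tnfrsf1b, Tnfrsf14, Tnfrsf1a and Tnfrsf12a have every M1 point above every M0 point, Tnfrsf26 has every M1 point below, Tnfrsf9 overlaps, and Tnfrsf10b lies at or below 0.071 TPM in every library.

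The line showed macrophage transcripts in both states. All 8 macrophage markers examined exceeded 1 TPM in all libraries, with Cd68 at 474 ± 15.0 TPM in M1 and 568 ± 46.6 TPM in M0 and Csf1r at 176 ± 16.2 TPM in M1 and 248 ± 7.70 TPM in M0 (mean ± SD, n = 3 in these and all following means). Adgre1, which encodes F4/80, was at 67.6 ± 1.13 TPM in M1 and 2.73 ± 0.505 TPM in M0. No marker of T cells, B cells or epithelial cells exceeded 0.303 TPM in any library, and fibroblast markers summed to between 0.427 and 0.524 TPM in M1 and between 0.782 and 1.04 TPM in M0. Of 4 neutrophil markers S100a9 and Mpo were at 0 in all libraries, while S100a8 reached 5.85 TPM in M0. Their part in the results was not tested. Reads assigned to genes numbered between 15615639 and 20283180 per library, so that for a transcript of 2000 bases 1 TPM stood for at least 26.5 reads.

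Cd40 and Fas showed the largest differences. Cd40 (NM_011611, chromosome 2, 165055636 to 165071654, mm10, plus strand), the receptor for CD40 ligand, had 998, 963 and 915 TPM in M1 replicates 1 to 3 and 9.95, 9.12 and 10.4 TPM in M0 replicates 1 to 3. Every M1 library lay far above every M0 library, and within either group the libraries lay close together. The ratio of mean TPM was 97.5, and the fitted log2 fold change was 6.47 (SE 0.055, limma adjusted p = 2.2e-15). The M0 level rested on 231 to 262 reads per library and the M1 level on 23390 to 27994. Fas (NM_007987, chromosome 19, 34290659 to 34327770, plus strand), the prototype death receptor, had 161, 153 and 148 TPM in M1 and 4.52, 4.56 and 4.04 TPM in M0. These groups did not overlap either, and M0 rested on 79 to 105 reads per library. The ratio of mean TPM was 35.1 (log2 fold change 4.85, SE 0.058, limma adjusted p = 3.5e-14).

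Both receptors for TNF were higher in M1. Tnfrsf1b (NM_011610, chromosome 4, 145212368 to 145246870, minus strand), which encodes TNFR2 and lacks a death domain, had 145, 156 and 175 TPM in M1 and 29.1, 30.4 and 29.7 TPM in M0. Its M1 libraries were more spread than its M0 libraries and all lay above them (log2 fold change 2.37, SE 0.064, limma adjusted p = 3.5e-11). Tnfrsf1a (NM_011609, chromosome 6, 125349723 to 125362483, plus strand), which encodes the death domain receptor TNFR1, had 136, 137 and 149 TPM in M1 and 69.1, 72.4 and 71.7 TPM in M0. The groups did not overlap, and the ratio of mean TPM was 1.98 (log2 fold change 0.97, SE 0.049, limma adjusted p = 7.6e-09), against 5.33 for Tnfrsf1b.

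The ratio of Tnfrsf1b to Tnfrsf1a within a library does not depend on how libraries are scaled to each other. It was 1.07, 1.14 and 1.17 in the M1 libraries and 0.422, 0.420 and 0.414 in the M0 libraries. Tnfrsf1b was thus the more abundant of the pair in every M1 library and the less abundant in every M0 library. On the log2 scale the ratio averaged 0.17 ± 0.071 in M1 and -1.26 ± 0.014 in M0 (SD, n = 3 each), a difference of 1.43. The exact permutation test gave p = 0.10 (two-sided), the smallest p that 3 samples against 3 allow.

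The starts of Fas, Tnfrsf1a, Tnfrsf1b, Tnfrsf9, Tnfrsf12a and Tnfrsf14 are covered by RefSeq promoter windows of GRCm38.p6, and Cd40, Tnfrsf10b and Tnfrsf26 have none in the table used here. The 250 bases before the start are shown for Fas and Tnfrsf1b, the receptors with a window that differed most between the states, and for Tnfrsf9, the tested receptor whose TPM groups overlapped. Capitals mark matches, on either strand and with overlapping matches merged, to a loose NF-κB pattern (a run of G and a pair of C around any bases), to TTCNNNGAA (the GAS pattern, the interferon-γ activated site) and to an ISRE core (GAAA repeated after a pair of any bases).
Fas, chr19:34290409-34290658, plus strand: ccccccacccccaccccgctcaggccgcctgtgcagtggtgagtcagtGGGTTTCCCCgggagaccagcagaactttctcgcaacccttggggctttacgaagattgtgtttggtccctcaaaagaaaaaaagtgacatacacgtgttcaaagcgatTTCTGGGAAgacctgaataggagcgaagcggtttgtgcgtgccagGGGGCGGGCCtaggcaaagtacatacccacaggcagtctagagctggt
Tnfrsf1b, chr4:145246871-145247120, minus strand: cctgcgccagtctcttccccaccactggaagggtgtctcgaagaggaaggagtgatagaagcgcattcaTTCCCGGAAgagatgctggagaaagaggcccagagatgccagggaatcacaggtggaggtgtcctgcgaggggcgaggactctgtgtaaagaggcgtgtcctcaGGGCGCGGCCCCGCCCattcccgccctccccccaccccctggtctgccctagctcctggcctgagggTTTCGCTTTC
Tnfrsf9, chr4:150927749-150927998, plus strand: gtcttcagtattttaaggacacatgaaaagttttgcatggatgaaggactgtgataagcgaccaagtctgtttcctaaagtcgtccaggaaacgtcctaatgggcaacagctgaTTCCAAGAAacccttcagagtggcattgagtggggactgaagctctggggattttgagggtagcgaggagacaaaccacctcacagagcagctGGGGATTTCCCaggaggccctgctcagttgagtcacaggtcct
In windows of 300 bases (250 before to 50 after the start), the NF-κB pattern matched in 6 of the 6 receptors' windows at the deposited transcript start and in 50.8% of all 32851 windows. A further window, at a second annotated Tnfrsf9 start (chr4:150919905-150920204) that is not the deposited one, matched none of the patterns. The GAS pattern matched in 4 of the 6, those of Fas, Tnfrsf1a, Tnfrsf1b and Tnfrsf9, and in 8.30% of all windows. The ISRE core matched in 2, those of Tnfrsf1b and Tnfrsf14, and in 3.44% of all windows, and the TATAAA letters in none of the 6 and in 13.6% of all. At the deposited starts Fas, which rose, and Tnfrsf9, which was not called on TPM, both held a GAS and an NF-κB match, which describes letters and shows no binding.

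The other receptors that bind TRAF adaptors divided by size of change. Tnfrsf14 (NM_178931, chromosome 4, 154922210 to 154928077, minus strand), which encodes HVEM, had 16.5, 15.8 and 13.3 TPM in M1 and 4.24, 3.36 and 4.36 TPM in M0. All M1 libraries lay above all M0 libraries, on 180 to 244 reads in M1 and 45 to 59 in M0, and the ratio of mean TPM was 3.81 (log2 fold change 1.70, SE 0.098, limma adjusted p = 2.5e-08). Tnfrsf12a (NM_001161746, chromosome 17, 23675445 to 23677449, minus strand), which encodes the TWEAK receptor Fn14, had 52.8, 49.5 and 50.0 TPM in M1 and 34.5, 33.5 and 33.5 TPM in M0. The M1 libraries were again all higher, with a ratio of means of 1.5 (log2 fold change 0.57, SE 0.048, limma adjusted p = 5.7e-07).

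Tnfrsf9 (NM_001077509, chromosome 4, 150927999 to 150946102, plus strand), which encodes the costimulatory receptor 4-1BB, had 76.2, 79.9 and 72.7 TPM in M1 and 80.3, 75.9 and 75.6 TPM in M0. The groups overlapped, and the log2 fold change of -0.02 (95% confidence interval -0.13 to 0.092) was not called (limma adjusted p = 0.74). The sign turned after median-of-ratios scaling, where Tnfrsf9 was called higher with a log2 fold change of 0.34 (95% confidence interval 0.216 to 0.466, adjusted p = 0.0003). The authors' deposited table also gave it 0.34, with an adjusted p of 2.6e-07. Whether Tnfrsf9 was called higher depended on how the libraries were scaled, and on TPM no direction was established.

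**Figure D2:**
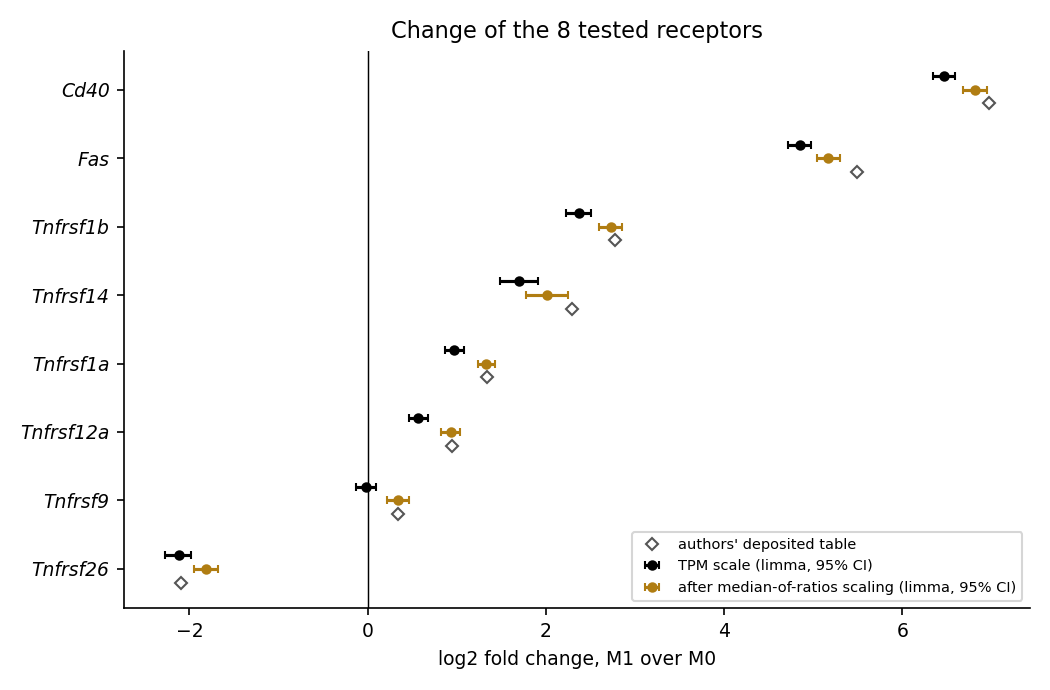
Log2 fold change of M1 over M0 (x axis) for the 8 tested receptors, from limma on TPM (black), from limma after median-of-ratios scaling (ochre), both with 95% confidence intervals, and in the authors' deposited table (open diamonds, no interval). All 3 values lie above 0 for the upper 6 receptors and below 0 for Tnfrsf26, while Tnfrsf9 is at -0.02 on TPM and 0.34 on the other scales.

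Tnfrsf26 was the receptor that fell. Tnfrsf26 (NM_175649, chromosome 7, 143607685 to 143627845, minus strand), a mouse gene beside the TRAIL decoy receptor genes Tnfrsf22 and Tnfrsf23, had 2.75, 3.10 and 3.04 TPM in M1 and 16.3, 16.7 and 15.8 TPM in M0. Every M1 library lay below every M0 library, on 137 to 158 reads in M1 and 622 to 763 in M0. Its mean was 5.49 times as high in M0 (log2 fold change -2.12, SE 0.066, limma adjusted p = 1.2e-10), and it stayed called lower after median-of-ratios scaling (-1.81, adjusted p = 1.5e-09).

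Its family neighbours fell with it. Tnfrsf23 had 1.68 ± 0.248 TPM in M1 and 9.88 ± 0.653 TPM in M0 (log2 fold change -2.02, SE 0.086, limma adjusted p = 1.7e-09). Tnfrsf22 had 1.74 ± 0.318 TPM in M1 and 7.32 ± 0.377 TPM in M0 (log2 fold change -1.61, SE 0.094, limma adjusted p = 2.5e-08). The 3 genes lie on the same strand, and the lower ends of the deposited Tnfrsf22 and Tnfrsf23 rows are 27.1 and 58.1 kb from that of Tnfrsf26. An antisense RNA gene, E230032D23Rik, which spans Tnfrsf22 and runs into Tnfrsf23, had 0.735 ± 0.251 TPM in M1 and 3.42 ± 0.672 TPM in M0. It was called lower, but entered the test through its M0 level alone. The sources used here do not say whether reads were counted by strand, and E230032D23Rik shares 3.33% of the exonic bases of Tnfrsf26 and 4.14% of those of Tnfrsf23 in GENCODE M21, so reads in those stretches cannot be assigned with certainty. Tnfrsf22 and Tnfrsf23 share 719 words of 50 bases, 17.3% of those of Tnfrsf22, so their split is uncertain, whereas Tnfrsf26 shares none with any of the other 27 family genes.

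Genes around the cluster changed in both directions. Among the 7 other tested genes within 500 kb, chosen for this description after their values were seen, Cars alone was called higher (log2 fold change 0.15, SE 0.060, adjusted p = 0.04) and 6 were called lower, against 18.7% and 61.5% of all tested genes. Those 6 include E230032D23Rik, which entered the test through its M0 level alone. Nap1l4, Cdkn1c, Slc22a18 and Nadsyn1 had log2 fold changes between -0.88 and -0.34, closer to 0 than those of the 3 receptor genes. Dhcr7, an enzyme of cholesterol synthesis, had -1.59. After median-of-ratios scaling Cdkn1c, Slc22a18 and Nadsyn1 were no longer called, while the 3 receptor genes, E230032D23Rik, Nap1l4 and Dhcr7 were still lower.

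**Figure D3:**
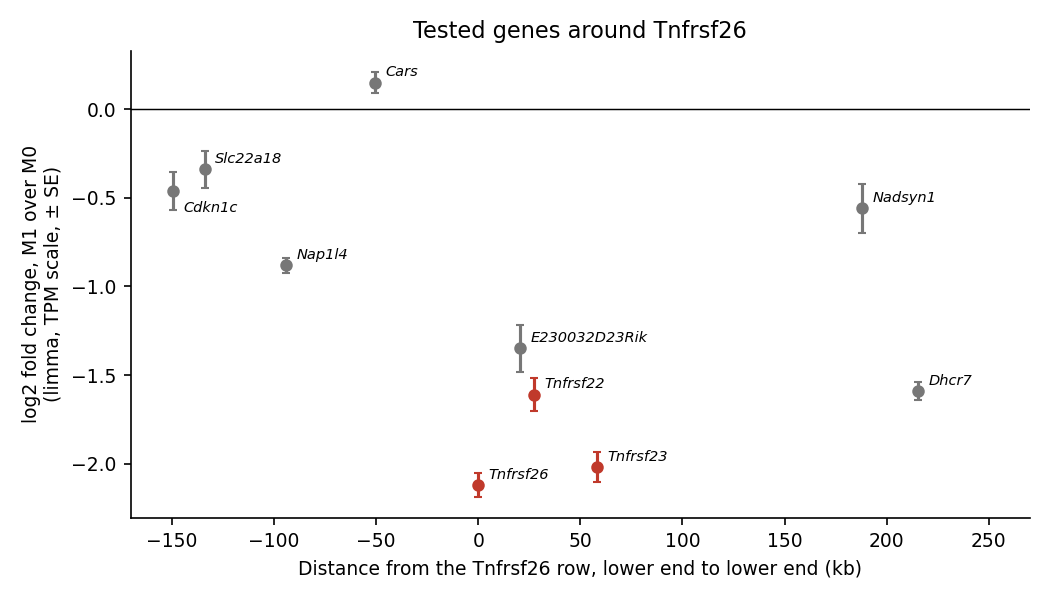
Fitted log2 fold change of M1 over M0 (y axis, ± SE) against the distance in kb from Tnfrsf26 (x axis, lower end to lower end) for the tested genes within 500 kb. Tnfrsf26, Tnfrsf22 and Tnfrsf23 (red) lie between -2.12 and -1.61, Cars is the only gene above 0, and Dhcr7 is at -1.59.

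Tnfrsf10b (NM_020275, chromosome 14, 69767472 to 69784411, plus strand), the mouse receptor for the death ligand TRAIL, was too low to be tested. It had 0.019, 0.055 and 0.041 TPM in M1 and 0.040, 0.042 and 0.071 TPM in M0, on 1 to 3 reads per library. The groups overlapped, and a difference was not detectable at this depth. The ratio of Fas to Tnfrsf10b was 8450, 2780 and 3600 in the M1 libraries and 113, 109 and 56.9 in the M0 libraries. The M1 and M0 ratios did not overlap (exact permutation p = 0.10, two-sided, the smallest possible), but each rests on those 1 to 3 reads of Tnfrsf10b and is imprecise. With so few reads in every library, the separation restates the difference in Fas and is no separate result.

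The order of the receptors by level differed between the states. In M1, Cd40 stood far above the rest at 958 ± 41.6 TPM. Tnfrsf1b, Fas and Tnfrsf1a followed with means of 158, 154 and 140 TPM and did not differ beyond their spread from their neighbours in that order. Below them, without overlap, came Tnfrsf9 at 76.3, Tnfrsf12a at 50.8, Tnfrsf14 at 15.2, Tnfrsf26 at 2.96 and Tnfrsf10b at 0.0383 TPM. In M0, Tnfrsf9 at 77.3 TPM was the most abundant, followed by Tnfrsf1a at 71.1, Tnfrsf12a at 33.8, Tnfrsf1b at 29.7, Tnfrsf26 at 16.3 and Cd40 at 9.83 TPM, none overlapping its neighbour. Fas and Tnfrsf14, at 4.38 and 3.99 TPM, overlapped, and Tnfrsf10b came last at 0.051 TPM.

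The make-up of the set changed accordingly. The 9 receptors summed to between 1525 and 1587 TPM in M1 and between 245 and 248 TPM in M0. Cd40 made up 61.6 ± 1.46% of that sum in M1 and 3.99 ± 0.271% in M0, and Fas 9.86 ± 0.219% in M1 and 1.78 ± 0.112% in M0. Tnfrsf9 made up 4.90 ± 0.209% in M1 and 31.4 ± 0.896% in M0, Tnfrsf1a 9.04 ± 0.643% in M1 and 28.8 ± 0.896% in M0, and Tnfrsf12a 3.26 ± 0.0755% in M1 and 13.7 ± 0.173% in M0. The share of Tnfrsf1b was 10.2 ± 1.20% in M1 and 12.1 ± 0.351% in M0, although its TPM rose. Without Cd40 the other 8 summed to between 589 and 610 TPM in M1 and between 235 and 238 TPM in M0.

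**Figure D4:**
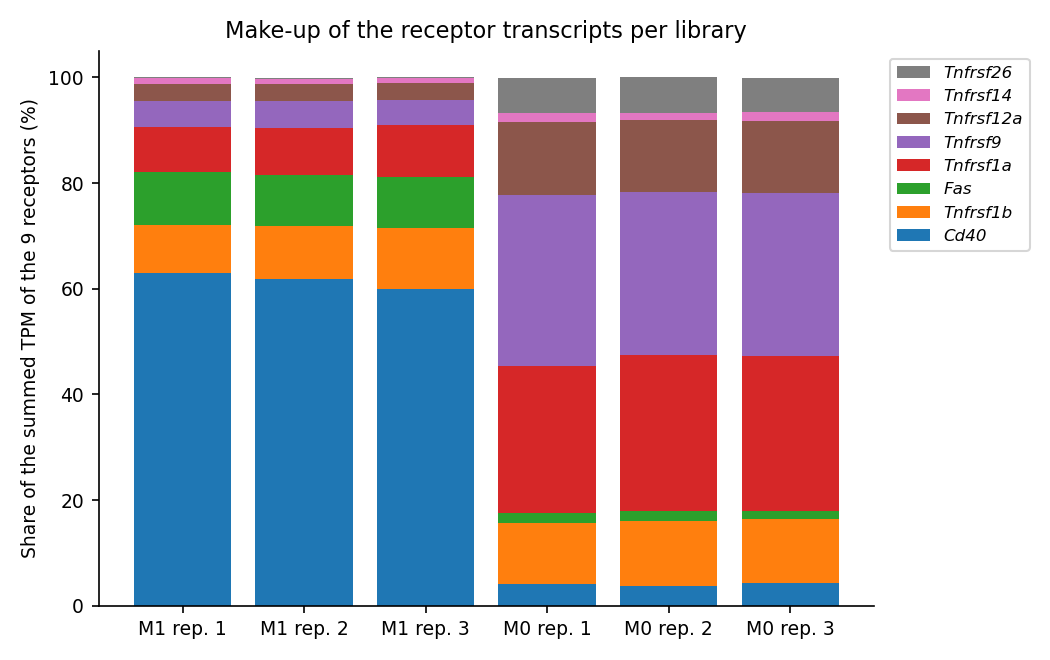
Share (%) of each receptor in the summed TPM of the 9 receptors, as stacked bars for the 3 M1 and the 3 M0 libraries. Cd40 (bottom, blue) takes 60.0% to 62.9% in M1 and 3.71% to 4.25% in M0, Tnfrsf9 and Tnfrsf1a take the largest shares in M0, and Tnfrsf10b, at most 0.029%, is not drawn.

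Most of the other TNF receptor superfamily genes were low in these cells. Of 19 others, 12 averaged below 1 TPM in both states and 4, Tnfrsf11b, Tnfrsf17, Tnfrsf18 and Tnfrsf19, were listed at 0 in all 6 libraries. Of the 7 tested, 1 was called higher, 5 lower and 1 not at all, beside 18.7% of all tested genes called higher and 61.5% lower. After median-of-ratios scaling 2 were higher, 4 lower and 1 not called, beside 38.1% of all tested genes called higher and 35.4% lower. Tnfrsf11a, which encodes RANK, the receptor through which RAW264.7 cells can be driven to osteoclasts, was the one called higher, with 20.2 ± 0.524 TPM in M1 and 16.7 ± 0.789 TPM in M0 (log2 fold change 0.26, SE 0.057, limma adjusted p = 0.0013). Ltbr, the lymphotoxin β receptor, had 39.9 ± 1.49 TPM in M1 and 38.1 ± 2.54 TPM in M0 and was called higher only after scaling (log2 change 0.42). Besides Tnfrsf22 and Tnfrsf23, the genes called lower were Relt, with 1.81 ± 0.127 TPM in M1 and 4.62 ± 0.801 TPM in M0, Tnfrsf13b, with 9.93 ± 0.166 TPM in M1 and 16.3 ± 1.14 TPM in M0, and Tnfrsf21, with 1.02 ± 0.0448 TPM in M1 and 1.46 ± 0.219 TPM in M0. Tnfrsf21 lost its call after scaling and when M0 replicate 3 was left out (log2 changes -0.08 and -0.21). By chromosome, 7 of the 28 family genes lie on chromosome 4, among them Tnfrsf1b, Tnfrsf9 and Tnfrsf14, which changed to different extents, and 4 lie on chromosome 7.

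Ligands of the receptors changed in both directions. Of 10 ligands and partners of the 9 receptors, 5 were tested. Tnfsf10 and Tnfsf14 passed the filter through the group in which they were high, so their calls are not counted here. Of the rest, Tnf rose, and Tnfsf12 and Tnfsf9 fell, on both scales. Over all tested genes, 18.7% were called higher and 61.5% lower on TPM, and 38.1% and 35.4% after median-of-ratios scaling. Tnf, which both Tnfrsf1a and Tnfrsf1b products bind, had 821 ± 5.95 TPM in M1 and 23.7 ± 1.00 TPM in M0 (log2 fold change 5.06, SE 0.044, limma adjusted p = 2.6e-15). Tnfsf10, which encodes TRAIL, had 54.3 ± 1.92 TPM in M1 and 0.658 ± 0.0773 TPM in M0, beside a receptor, Tnfrsf10b, with at most 3 reads in any library. Tnfsf10 entered the test through its M1 level alone. Fasl and Cd40lg, the ligands of the receptors that rose most, had at most 1 read summed over either group's 3 libraries.

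For 3 other receptors a ligand fell. Tnfsf14, which encodes the HVEM ligand LIGHT, had 0.904 ± 0.151 TPM in M1 and 4.69 ± 0.427 TPM in M0 (log2 fold change -1.58), while its receptor Tnfrsf14 rose. Tnfsf14 entered the test through its M0 level. Tnfsf12, which encodes TWEAK, had 2.04 ± 0.344 TPM in M1 and 7.36 ± 0.160 TPM in M0 (log2 fold change -1.46), while Tnfrsf12a rose. Tnfsf9, the 4-1BB ligand, had 19.3 ± 0.472 TPM in M1 and 41.4 ± 1.96 TPM in M0 (log2 fold change -1.06), while Tnfrsf9 kept overlapping values. Lta, Btla and Cd160 were too low to be tested. The limma adjusted p was 3.8e-08 for Tnfsf12 and 7.3e-09 for Tnfsf9, and none is read for Tnfsf14. Both Tnfsf12 and Tnfsf9 were lower in all M1 libraries than in any M0 library, as were 61.8% of all tested genes.

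Genes that act below the receptors changed in both directions. Of 22 genes of TRAF and ubiquitin signalling, all tested, 10 rose, 4 fell and 8 were not called on TPM. Over all tested genes, 18.7% were called higher and 61.5% lower. After median-of-ratios scaling 18 of the 22 were higher and 2 lower, beside 38.1% and 35.4% of all tested genes. The median log2 fold change of these genes was 0.11 on TPM and 0.46 after scaling, against -0.31 and 0.02 over all tested genes. Traf1, an adaptor that binds TNFR2, CD40 and 4-1BB, had 103 ± 2.46 TPM in M1 and 3.60 ± 0.130 TPM in M0. Tnfaip3, the ubiquitin-editing inhibitor A20, had 51.0 ± 2.54 TPM in M1 and 3.61 ± 0.194 TPM in M0, and Birc3, the ubiquitin ligase cIAP2, had 120.0 ± 2.54 TPM in M1 and 25.5 ± 1.48 TPM in M0. Map3k14, the kinase NIK of the noncanonical NF-κB pathway, fell to 3.70 ± 0.502 TPM in M1, against 8.64 ± 0.416 TPM in M0, and Tradd, the TNFR1 adaptor, to 19.6 ± 1.90 TPM in M1, against 31.1 ± 0.827 TPM in M0. Otulin, a deubiquitinase of linear chains, had 71.2 ± 2.26 TPM in M1 and 87.1 ± 1.62 TPM in M0, and its log2 change of -0.29 turned to 0.07, without a call, after scaling. Tab2, at 41.5 ± 4.72 TPM in M1 and 42.7 ± 2.25 TPM in M0, was not called on TPM. It was called higher after scaling (0.31) and lower without M1 replicate 3 (-0.14). Rbck1, a subunit of the linear ubiquitin ligase, was called lower on TPM (-0.12) and higher after scaling (0.24).

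Of 11 genes of death signalling, all tested, 7 rose and 4 fell on TPM, beside 18.7% and 61.5% of all tested genes. After scaling 7 were higher and 2 lower, beside 38.1% and 35.4% of all tested genes. The list had a median log2 fold change of 0.37 on TPM and 0.73 after scaling, against -0.31 and 0.02 over all tested genes. Cflar, which encodes the caspase-8 inhibitor c-FLIP, had 121 ± 2.38 TPM in M1 and 21.7 ± 1.39 TPM in M0 (log2 fold change 2.42, SE 0.053, limma adjusted p = 5.6e-12). Daxx, first described as a Fas-binding protein, had 158 ± 8.28 TPM in M1 and 17.3 ± 0.780 TPM in M0, and Mlkl, the effector of necroptosis, had 94.5 ± 2.65 TPM in M1 and 31.3 ± 2.68 TPM in M0. Fadd, the adaptor that links Fas to caspase-8, fell to 5.89 ± 0.190 TPM in M1, against 10.1 ± 0.321 TPM in M0. Ripk3 had 32.1 ± 0.430 TPM in M1 and 40.5 ± 1.45 TPM in M0, a log2 change of -0.32 that turned to 0.03, without a call, after scaling.

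Of 5 genes of receptor and ligand shedding, 3 were tested, and 2 rose and 1 fell on both scales. The shares of all tested genes were 18.7% higher and 61.5% lower on TPM, and 38.1% and 35.4% after median-of-ratios scaling. Adam17, the protease that sheds TNF and both of its receptors, had 160 ± 7.67 TPM in M1 and 124 ± 6.34 TPM in M0 (log2 fold change 0.36, SE 0.053, limma adjusted p = 6e-05). Rhbdf2, the cofactor iRhom2 that carries ADAM17 to the surface, had 98.6 ± 4.58 TPM in M1 and 30.7 ± 0.668 TPM in M0. Adam10 fell to 33.7 ± 2.91 TPM in M1, against 51.2 ± 4.64 TPM in M0. Timp3 and Rhbdf1 had at most 1 read summed over either group's libraries.

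**Figure D5:**
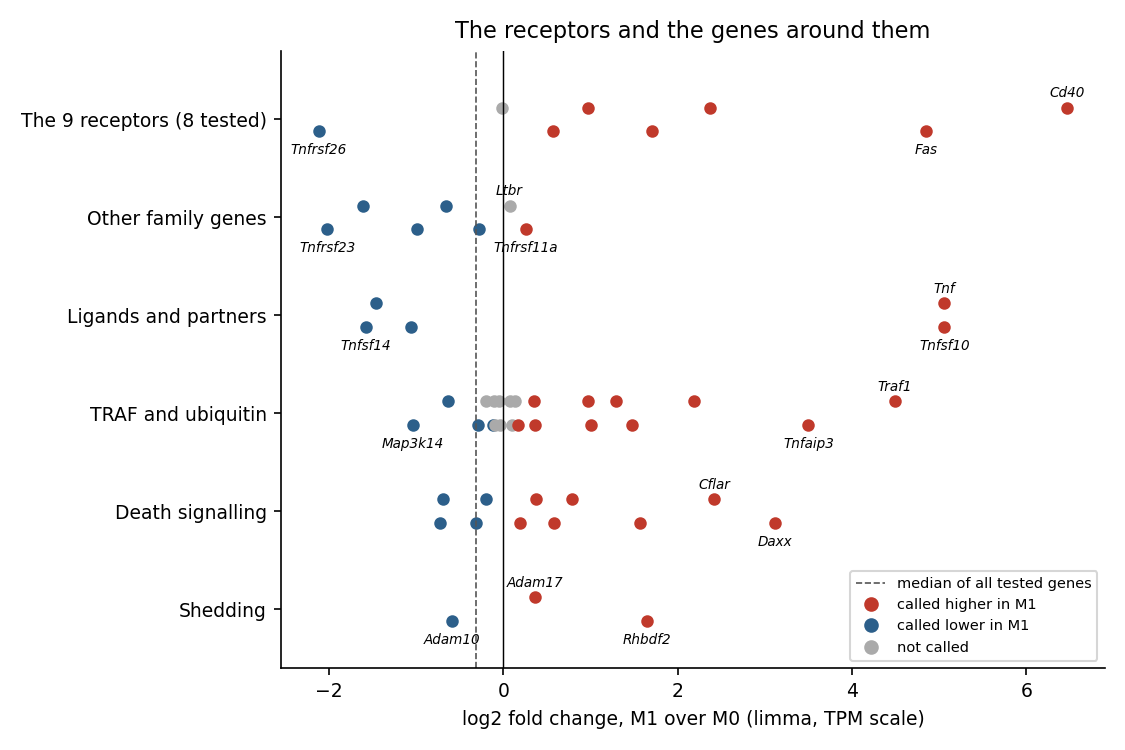
Fitted log2 fold change of M1 over M0 (x axis, TPM scale) of every tested gene among the receptors, the other family genes, the ligands and partners, and the genes below the receptors, coloured by call. The dashed line marks the median of all tested genes (-0.31), and the named genes are the 2 highest of each group and, except for death signalling, the lowest, from Cd40 at 6.47 to Tnfrsf26 at -2.12 for the receptors.

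Genes outside the set with the profile nearest to Cd40, by Euclidean distance over log2(TPM + 1) of the 6 libraries, were Ifit2 (distance 1.27), Igtp (1.39) and Cmpk2 (1.52), with means of 639, 566 and 914 TPM in M1 and 7.11, 8.10 and 5.03 TPM in M0. The nearest to Tnfrsf26 were Mfsd6 (0.223), Gpr162 (0.340) and Nfic (0.354), with 3.14, 2.85 and 3.40 TPM in M1 and 15.3, 17.8 and 17.7 TPM in M0. The smallest distance to Cd40 was larger than all 3 of those to Tnfrsf26.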

How the data were processed

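The authors deposited a table of TPM per gene and library, per the file headers, each row naming a RefSeq transcript with position and length. A second deposited table holds log2 values per library (the transform is not stated), a log2 fold change and raw and adjusted p-values, per the file headers. That fold change is headed M0 vs. M1, and its sign is positive where the M1 values are higher. The genome build mm10 and the tools STAR 2.7.5a, HOMER 4.11.1, DESeq2 and bcl2fastq are listed, without roles, per the submitters' processing notes. The TPM columns sum to between 551257 and 572349. For Cd40 and Tnfrsf12a the authors' tables use different transcripts (NM_011611 and NR_027852, NM_001161746 and NM_013749), as they do for Tnfrsf13b, Tnfrsf22 and Tnfrsf23 among the other family genes described.

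M1 was compared with M0 by limma 3.58.1 (R 4.3.3, trend and robust empirical Bayes) on log2(TPM + 1), over the 11297 genes that reached 1 TPM in 3 or more samples. The model held the group alone and left 4 residual degrees of freedom. Fold changes on this scale understate those of low genes. Folds given as ratios are of mean TPM. TPM times length was a whole multiple of 1 value per library, within 0.1, for 99.8% to 99.99% of values above 0, which gave the reads behind each value; they cover counting error only.

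The receptors, the gene lists and the tests were chosen with earlier results of these data known. Beside the 9 receptors, the text names other family genes at 1 TPM or more, up to 3 called genes with the largest change in each direction and the most abundant one not called per list, 3 macrophage markers and the 3 nearest profiles of 2 receptors. Tnfrsf11b, Tnfrsf17, Tnfrsf18, Tnfrsf19, Tnfrsf8, Fasl, Cd40lg, Timp3, Rhbdf1, Lta, Btla, Cd160, Rbck1, Faim, Traf3, Traf6, Sharpin, Map3k7, the other cell markers and the genes around Tnfrsf26 were named after their values were seen. A gene that the rule selects for death signalling is not reported here. Alternatives were another pseudocount, no filter, median-of-ratios scaling, voom on the recovered reads, a replicate block and leaving out each library. Promoter sequences are from RefSeq (GRCm38.p6), with 6 of the 9 receptors matched by symbol.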

Additional observations from a re-analysis of the deposited data

How the results depend on the processing

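The counts of 6 receptors higher and 1 lower were the same with a pseudocount of 0.1, without a filter, with voom on recovered reads, with a replicate block and when any 1 library was left out; median-of-ratios scaling gave 7 and 1. Tnfrsf9 moved to a log2 change of 0.34 (called) under that scaling and ranged from -0.05 to 0.01 when 1 library was left out, never called. Under the scaling 4305 genes were higher and 4002 lower, against 2111 and 6944 on TPM, and when 1 library was left out the counts ranged from 1825 to 2067 and from 6251 to 6998. Under the scaling 18 TRAF and ubiquitin genes were higher and 2 lower, 2 death signalling genes were lower and 2 other family genes were higher, while Otulin (0.07), Ripk3 (0.03) and Tab2 (0.31, called) turned sign, as did Rbck1 (called lower at -0.12, called higher at 0.24), Faim, Traf3, Traf6, Sharpin and Map3k7. Without a filter 2 other family genes were higher, since Tnfrsf8 was then tested, and voom, which called 2086 genes higher and 7206 lower in all, gave 7 lower TRAF and ubiquitin genes. With Tnfsf10 counted, leaving out 1 library gave 1 to 2 ligands higher, as Tnfsf10 no longer passed the filter without any 1 M1 library. Leaving out 1 library put Tab2 between -0.14 (called, without M1 replicate 3) and 0. The cause of the other shifts was not tested.

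Replicates with the same number deviated from their group means with correlations of 0.071, -0.076 and 0.037. Pairs with different numbers had between -0.179 and 0.152. No pairing by number was seen, but these values cannot show that none existed. With a replicate block 2143 genes were called higher and 7016 lower, with 6 and 1 of the receptors, and not every sample correlated best with its own number. The ratio of Tnfrsf1b to Tnfrsf1a differed by 1.43 (log2) within replicate numbers, where the smallest exact p is 0.25, and that of Fas to Tnfrsf10b by 5.63. Depth limits Tnfrsf10b, at 1 to 3 reads per library.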

Other observations

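Tnfrsf8, which encodes CD30, lay below the filter and was listed at 0.767, 0.985 and 0.631 TPM in M1, on 135 reads over the 3 libraries, and at 0, 0 and 0.044 TPM in M0, on 2 reads. In the authors' deposited table its log2 fold change was 5.21 (adjusted p = 0.00032). Its mean log2 values there, 2.71 in M1 and 2.08 in M0, lie closer together than that fold change. For that gene and for Tnfrsf13b the deposited tables differ in level. Tnfrsf8 had a log2 of 5.49 for the mean reads behind its TPM in M1 against a mean of 2.71 in the authors' log2 values, and Tnfrsf13b 8.62 against 5.82 in M1 and 9.18 against 6.12 in M0. The Tnfrsf13b rows of the deposited tables name different transcripts, NR_157295 for TPM and NM_021349 for the log2 values. The Tnfrsf8 rows name the same transcript. Tnfrsf22, whose transcripts also differ, differed by -0.31 in M1 and -0.80 in M0, authors' log2 value minus log2 reads. Tnfrsf23, whose transcripts differ too, had 0.23 in M1 and -0.2 in M0. For the 8 tested receptors, of which Cd40 and Tnfrsf12a have different transcripts, the same gap was at most 0.19 in either direction. Tnfrsf13b was called lower on TPM (log2 change -0.66, limma adjusted p = 2.1e-06), while the authors' deposited table gave -0.40 with an adjusted p of 0.17. What sets these levels apart was not tested.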
